A study of Arabidopsis thaliana with 64 samples.

Results

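The level of the LBD16 transgene was compared among the 4 independent insertion lines of Arabidopsis thaliana that carry 35S:GR-LBD16. The lines were chosen by the mean level of AT2G42430 (LBD16) in their mock libraries: the 2 highest lines, L11 and L8, formed the high pair while the 2 lowest, L12 and L3, formed the low pair. Each pair holds 8 libraries, so that 16 of the 64 libraries of the series enter the comparison. All 16 came from whole seedlings of the T3 generation in the Col-0 background, in which the 35S promoter drives the coding region of LBD16 fused to the glucocorticoid receptor (GR) in every line. The vector also carries a pOLE1:OLE1-RFP seed marker. High and low lines were made with the same construct and are independent insertions, whose number and completeness were not analysed here. Seedlings grew in the dark for 5 days and were then moved in darkness to plates with 10 µM dexamethasone (Dex) or to mock plates for 24 hours. Each line and treatment had 2 replicates, each a single plate sown with 200 to 300 seeds.

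LBD16 is a plant-specific transcription factor of the LATERAL ORGAN BOUNDARIES DOMAIN (LBD) family. In the root it acts downstream of the auxin response factors ARF7 and ARF19, where auxin induces it in the cells that found a lateral root, and it takes part in callus formation as well. A GR fusion is held in the cytoplasm until Dex binds the receptor, so the mRNA level of the transgene and the nuclear activity of its protein are separate quantities. The question addressed here was whether seedlings that carry more LBD16 mRNA differ in the rest of their transcriptome, with and without Dex.

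The libraries held 2964241 to 7968970 counts. One of them, L3 mock replicate 1, stood apart: the median correlation of its log2 CPM (counts scaled to the library total) with the other libraries was 0.706, against 0.945 to 0.979 for the other 15. Its 10 shoot and leaf markers summed to 814 CPM, against 12521 to 20620 elsewhere, and its 15 root markers to 47.5 CPM, against 294 to 401. The 8 seed reserve genes summed to 701 CPM in this library and to 10.4 to 362 in the others. It was kept among the 16 libraries, and results that rest on it are also given for the 15 libraries without it. With it, the common biological coefficient of variation was 0.290, and without it 0.163. The seedlings were grown in darkness, yet LHCB3, a light-harvesting protein of photosystem II, stood at 479 to 1341 CPM in the other 7 low libraries and at 8.99 CPM in L3 mock replicate 1. Principal components placed the same library alone on the first axis, which held 65.2% of the variance, while the second held 9.54%.

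**Figure D1:**
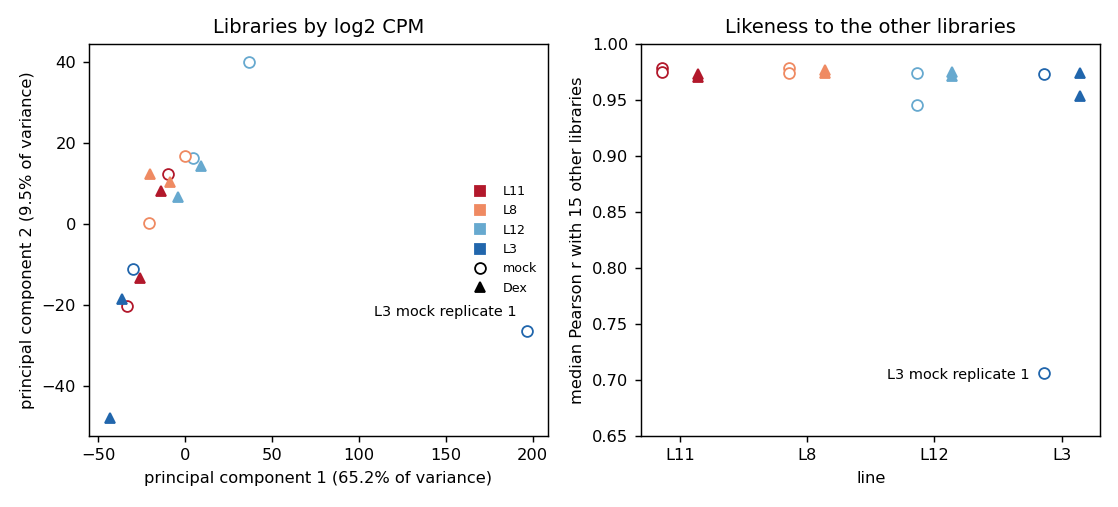
Median Pearson correlation of each of the 16 libraries with the other libraries, over log2 CPM of the tested genes, by line and treatment. L3 mock replicate 1 lies at 0.706 and the other 15 libraries lie between 0.945 and 0.979.

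The values of LBD16 that ordered the lines are a description. Reads on AT2G42430 (TAIR10.1 chromosome 2, positions 17663353 to 17665337) come from the endogenous gene and from the coding region of the transgene together. In L11, the mock libraries held 353 and 421 CPM and the Dex libraries 408 and 484 CPM. In L8, the values were 191 and 191 CPM in mock and 182 and 157 CPM in Dex. L11 and L8 thus shared no value, and L11 held 2.31 times the mean of L8.

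In L12, LBD16 stood at 87.7 and 87.4 CPM in mock and at 90.9 and 67.6 CPM in Dex. In L3, it stood at 56.4 and 59.1 CPM in mock and at 63.2 and 57.2 CPM in Dex. The line means over 4 libraries were 417 ± 53.9 (SD) for L11, 180.2 ± 16.2 for L8, 83.4 ± 10.7 for L12 and 59.0 ± 3.06 for L3. The ordering of neighbours was L11 over L8 over L12 over L3 in mock and in Dex, with L12 at 1.41 times L3 and no overlap between any 2 lines. Across the border between the pairs, the lowest high library held 1.72 times the highest low library. L3 mock replicate 1, at 56.4 CPM, was close to the other libraries of its line for this gene.

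All 16 libraries lay above those of the other 3 GR constructs (CHA19, ENAP1 and WRI3), where AT2G42430 ran from 8.38 to 18.4 CPM over 48 libraries with a median of 14.04. The lowest GR-LBD16 library held 3.06 times the highest of those 48. The low lines are therefore transgenic lines with raised LBD16 mRNA, and not lines without it.

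The Dex libraries were not used for the ranking. They come from the same 4 insertion lines, so the test of LBD16 in them is not independent of that ranking. The mean log2(CPM + 1) was 8.10 in the 4 Dex libraries of the high lines and 6.12 in the 4 of the low lines, a difference of 1.98. The exact two-sided permutation test over libraries gave p = 0.0286, the smallest that 70 splits allow. Leaving out single libraries gave differences of 1.71 to 2.25. Libraries of a line share an insertion, and over 4 lines the smallest two-sided p that any exact test can reach is 0.333. This limit holds for each comparison of the pairs that follows, where n is 2 lines against 2. Unless a fit over libraries models the line, its p-values rest on the spread of libraries within a pair. That spread joins differences between plates with those between the lines of the pair.

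**Figure D2:**
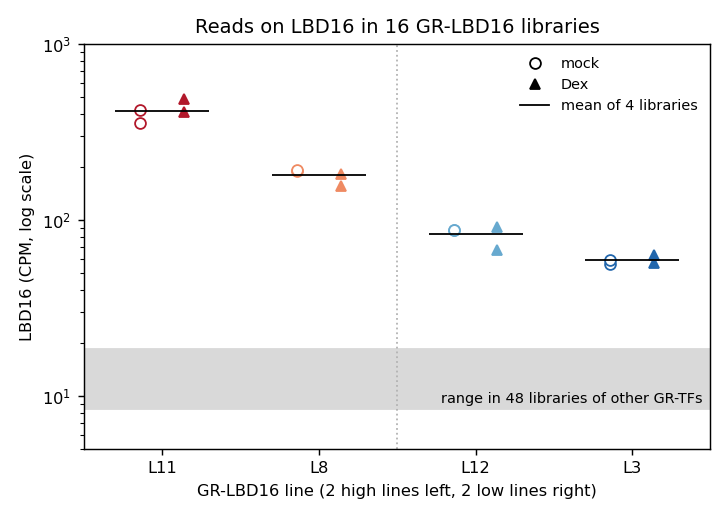
CPM of AT2G42430 (LBD16) on a log axis in each of the 16 libraries, by line and treatment, with the range of the 48 libraries of the other GR constructs. Lines are ordered L11, L8, L12 and L3, and none of the 8 libraries of the high lines falls among the 8 of the low lines.

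Against this 4.19-fold difference in mean LBD16 level, edgeR called no other gene between the pairs in a fit without a term for each line. Its quasi-likelihood test with treatment as covariate called 1 of 18087 genes at an adjusted p under 0.05, which is 0.00553% of those tested, and that gene was LBD16 itself, whose contrast set the groups (log2 fold change 2.11, SE 0.256). Without adjustment, 1454 other genes had p under 0.05, 504 of them higher and 950 lower in the high lines. LBD16 counted, these make up 8.04% of the genes tested, with 2.79% higher and 5.25% lower. Without L3 mock replicate 1, the same test again called LBD16 alone among 18229 genes (0.00549%), with 1505 other genes at an unadjusted p under 0.05 (8.26% with LBD16). In a fit with a term for each line, an edgeR contrast of line means called 2 other genes over 16 libraries, both higher. Over 15 libraries, a setting chosen after seeing the data, it called 85, with 60 higher and 25 lower. That contrast is set against the spread between libraries of a line. DESeq2 on the 16 libraries called 12 other genes, 8 higher and 4 lower, and on the 15 libraries 52, of which 35 were higher.

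Neither treatment alone yielded a call by edgeR. In the Dex libraries, 0 of 17303 genes passed, 1104 genes other than LBD16 had an unadjusted p under 0.05 (6.39% with LBD16), and DESeq2 called 44. In the mock libraries, 0 of 17548 genes passed, 896 others had an unadjusted p under 0.05 (5.11% with LBD16), and DESeq2 called 1, the defensin-like LCR69, higher in the high lines. Without L3 mock replicate 1, the mock libraries gave 0 calls among 17670 genes and 766 others at an unadjusted p under 0.05 (4.34% with LBD16). The same insertion lines enter both comparisons.

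In 9 of 18884 genes with a mean of at least 1 CPM (0.0477%), the 8 libraries of the high lines and the 8 of the low lines did not overlap. One of them was LBD16. Since edgeR, in the fit without a term for each line, called none of the other 8, they are given as values. They were chosen after their values were seen. The group holds 5 higher and 3 lower genes, against 0.0318% and 0.0159% of all genes in each direction, LBD16 counted. Their adjusted p lay between 0.418 and 0.58 over 16 libraries and between 0.147 and 0.435 over 15.

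OEP6 (AT3G63160), a protein of the outer chloroplast envelope, had the largest log2 fold change of the 8. It ranged from 62.8 to 95.5 CPM with a median of 75.7 in the high lines and from 9.47 to 59.7 CPM with a median of 34.1 in the low lines. Its log2 fold change was 1.103 (SE 0.264), and 0.93 (SE 0.173) without L3 mock replicate 1. By DESeq2, OEP6 was called in both sets of libraries, with adjusted p of 0.049 for the 16 and 0.000846 for the 15. L3 mock replicate 1 had the lowest value, and the remaining low libraries began at 26.3 CPM. OEP6 also differed within the low pair, where its 15-library fold change of L12 over L3 was −0.85 with an adjusted p of 0.000835.

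AT5G38005, a gene for a non-coding RNA, ran from 9.05 to 13.7 CPM in the high lines and from 0.482 to 8.20 CPM in the low lines, with medians of 11.997 and 6.60. The log2 fold change was 1.04 (SE 0.322). Its lowest value was again in L3 mock replicate 1, and without that library the low lines ran from 2.699 to 8.20 CPM. DESeq2 called AT5G38005 over those 15 libraries (adjusted p = 0.00147) and in the Dex libraries (adjusted p = 0.0359).

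AT3G56360, which encodes an uncharacterized protein, had the lowest p of the 8. Its levels ran from 65.8 to 96.2 CPM (median 77.5) in the high lines and from 43.9 to 63.3 CPM (median 53.6) in the low lines. The log2 fold change of 0.58 (SE 0.114) gave an unadjusted p of 0.000104 and an adjusted p of 0.418 by edgeR, while DESeq2 called AT3G56360 (adjusted p = 0.0053). Here L3 mock replicate 1, at 45.8 CPM, was within the range of the other low libraries.

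AGP7, an arabinogalactan protein of the cell surface, ran from 310.2 to 356 CPM in the high lines. In the low lines it ran from 222 to 292 CPM, apart from 88.0 CPM in L3 mock replicate 1. The aquaporin PIP1;4, a water channel of the plasma membrane, ran from 91.5 to 109 CPM in the high lines and from 71.6 to 88.2 CPM in 7 low libraries, with 28.7 CPM in the same library. Their log2 fold changes over 16 libraries were 0.52 and 0.47, and 0.39 and 0.33 over 15, where DESeq2 called both (adjusted p = 0.000363 for AGP7 and 0.0109 for PIP1;4).

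The 3 lower genes were NTMC2T5.1, AT1G79950 and AT3G10440. NTMC2T5.1 encodes a membrane protein with a C2 domain, and ran from 26.1 to 32.2 CPM in the high lines and from 33.5 to 50.6 CPM in the low lines, a log2 fold change of −0.35. AT1G79950, annotated as a RAD3-like DNA helicase, ran from 42.1 to 51.9 CPM and from 52.7 to 70.3 CPM, a log2 fold change of −0.28. AT3G10440, annotated with the C terminus of Shugoshin, a family that guards sister chromatid cohesion at centromeres, ran from 5.51 to 8.33 CPM and from 8.55 to 10.4 CPM. All 3 gaps between the pairs were narrower than the range within either pair.

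**Figure D3:**
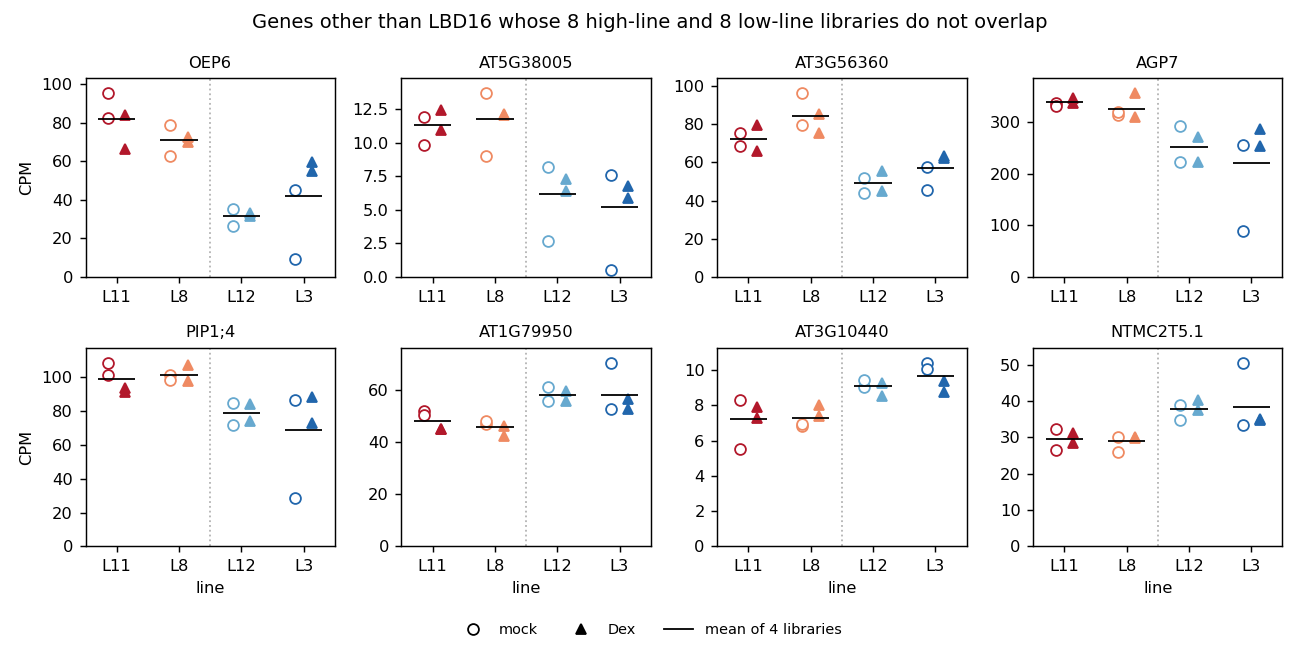
CPM of the 8 genes other than LBD16 whose 8 high and 8 low libraries do not overlap, by line and treatment. OEP6 runs from 62.8 to 95.5 in the high lines and from 9.47 to 59.7 in the low lines, and L3 mock replicate 1 gives the lowest value of OEP6, AT5G38005, AGP7 and PIP1;4.

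LBD proteins bind a LOB-box, the core of which is written GCGGCG. This hexamer was searched on both strands in the 250 bases before the RefSeq start of each gene (TAIR10.1), where it occurred in 300 of 17732 tested protein-coding genes (1.69%). Of the 7 protein-coding genes without overlap, 1 held it, NTMC2T5.1, and none of the 4 higher ones did. The window before NTMC2T5.1 is chr1:18621958-18622207 on the minus strand, and its hexamer begins 232 bases before the gene start. The hexamer is shown in capitals within 30 bases around it.
NTMC2T5.1: cggaattgagttGCGGCGgtgcagcagcga
A match of these letters is a description and marks no measured binding.

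Further genes with a low p over the 16 libraries, also chosen after their values were seen, included APR2 and AT2G04050. APR2, an adenosine phosphosulfate reductase of sulfate assimilation, ran from 5.34 to 10.9 CPM (median 7.62) in the high lines and from 3.60 to 5.94 CPM (median 4.32) in the low lines. Its log2 fold change was 0.82 (SE 0.160) with an adjusted p of 0.418, and the pairs overlapped only slightly. DESeq2 called APR2 over the 15 libraries (adjusted p = 0.00332). AT2G04050, a MATE efflux transporter, ran from 2.46 to 13.3 CPM in the high lines and from 6.85 to 34.7 CPM in the low lines, a log2 fold change of −1.53 (SE 0.302) with an adjusted p of 0.418. AT2G04050 was called in the Dex libraries when L3 Dex replicate 1 was left out (adjusted p = 0.0167), and by DESeq2 in all 16 libraries.

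Of the 44 DESeq2 calls in the Dex libraries, 32 were higher and 12 lower in the high lines. The 6 described next were chosen from them after their values were seen, and edgeR called none of them. EXT12, an extensin of the cell wall, stood at 11.6 and 13.1 CPM in the Dex libraries of L11, 12.3 and 24.3 in those of L8, 7.06 and 5.98 in L12, and 5.65 and 2.93 in L3. Its log2 fold change was 1.502 by DESeq2 (adjusted p = 0.00136) and 1.49 by edgeR (SE 0.274, adjusted p = 0.221). EXT13, EXT6 and the peroxidase RHS19 gave edgeR log2 fold changes of 1.79, 1.68 and 1.68 with adjusted p of 0.257, 0.504 and 0.289.

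In mock, EXT12 stood at 10.5, 7.38, 10.1 and 5.47 CPM in the mock libraries of the high lines, and at 14.4 and 29.3 CPM in L12 and 10.8 and 1.52 CPM in L3. The mock values of the low lines thus spanned those of the high lines, and the 15-library edgeR fold change of EXT12 in mock was −0.67 (SE 0.644, adjusted p = 0.888). The interaction test for EXT12 gave a log2 difference of 2.0999 between the Dex and mock contrasts (SE 0.748, adjusted p = 0.657), so that a difference between them was not shown.

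LSU1, a gene raised under low sulfate, ran from 6.31 to 8.81 CPM in the 4 Dex libraries of the high lines and from 2.49 to 4.39 CPM in the 4 of the low lines, with an edgeR log2 fold change of 1.23 (SE 0.242, adjusted p = 0.257). ATSDI1, a repressor of glucosinolate synthesis under low sulfate, ran from 3.16 to 4.37 CPM and from 0.451 to 1.76 CPM in the same libraries, with a log2 fold change of 1.87 (SE 0.383, adjusted p = 0.257). In mock, LSU1 ran from 4.62 to 7.57 CPM in the high lines and from 0 to 5.74 CPM in the low lines, and the pairs overlapped. Of the 7 tested genes for cysteine synthesis, which follows sulfate reduction, 1 was above and 6 below 0 in the Dex libraries, with a median of −0.026, and 4 above and 3 below over 16 libraries, with a median of 0.02. None of these 7 was called by edgeR.

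The difference between the Dex and mock contrasts was tested as an interaction. No gene passed among 18087 by edgeR (924 at an unadjusted p under 0.05, or 5.11%) or by DESeq2 (1109), and none among 18229 without L3 mock replicate 1 (727 at an unadjusted p under 0.05, or 3.99%). Within the high lines, Dex against mock gave 0 calls over 16 libraries, with 290 genes at an unadjusted p under 0.05 (1.6%). Within the low lines it gave 0, with 3428 genes at an unadjusted p under 0.05 (19%), and 941 (5.16%) without L3 mock replicate 1. Over 15 libraries, 2 genes rose with Dex in the high lines (0.011% of those tested), bHLH093 and AT2G18980, with 798 at an unadjusted p under 0.05 (4.38%), and 0 genes passed in the low lines. Both were named after their values were seen.

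The transcription factor gene bHLH093 stood at 34.7 and 25.0 CPM in the Dex libraries of L11 and at 27.6 and 25.1 in those of L8, against 13.0, 9.85, 12.7 and 14.7 CPM in the 4 mock libraries of these lines. In the low lines, the Dex libraries held 15.6, 16.9, 15.2 and 11.3 CPM. The mock libraries of the low lines held 15.4, 18.22 and 12.2 CPM, besides 59.6 in L3 mock replicate 1. This gene was picked by its call in the high lines, so the separation of Dex and mock there is no further result. In the low lines Dex and mock overlapped. The change with Dex over 15 libraries was 1.15 (SE 0.155, adjusted p = 0.00817) in log2 in the high lines and 0.02 (SE 0.172) in the low lines, and the test of their difference gave 1.13 (SE 0.231, unadjusted p = 0.000137, adjusted p = 0.936). 

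The peroxidase gene AT2G18980 stood at 33.7 to 49.9 CPM in the Dex libraries of the high lines and at 11.6 to 17.61 CPM in their mock libraries. In the low lines it ran from 12.4 to 22.9 CPM in Dex and from 10.5 to 18.9 CPM in mock, with 42.9 CPM in L3 mock replicate 1. The change with Dex was 1.45 (SE 0.190, adjusted p = 0.00817) in the high and 0.34 (SE 0.216) in the low lines, and their difference, 1.11 (SE 0.287), had an adjusted p of 0.936. Over all 16 libraries edgeR called neither gene, so both calls rest on leaving out that library. A difference of Dex effects between the pairs was therefore not shown for either gene.

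The gene lists bear on the roles of LBD16 and on the pathways of the study. In the fit without a term for each line, edgeR called no list member other than LBD16 between the pairs. DESeq2 called 1 over 15 libraries, AT3G49160 of the glycolysis list (log2 fold change −0.41, adjusted p = 0.0381). Of 8 LBD genes tied to lateral roots or callus, LBD18 alone, besides LBD16, was high enough to test over 16 libraries. LBD18, which acts with LBD16 in the emergence of lateral roots, ran from 1.52 to 4.31 CPM in the high lines and from 0.675 to 4.34 CPM in the low lines. The pairs overlapped widely, and its log2 fold change was 0.35 (SE 0.313, adjusted p = 0.636). LBD18 was highest in L3 mock replicate 1, without which the low lines ran from 0.675 to 2.16 CPM and the change was 0.69 (SE 0.239, adjusted p = 0.435).

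Of 17 tested genes of auxin transport, perception and response, 15 lay above 0 and 2 below, with a median log2 fold change of 0.22 against −0.02 over all 18086 other genes tested. Without L3 mock replicate 1, in which the summed level of the list was 507 CPM against 1175 to 1707 elsewhere, the median was 0.12. In the Dex libraries 13 lay above and 4 below 0, with a median of 0.21, against −0.004 over all genes. In the mock libraries without L3 mock replicate 1, 13 lay above and 4 below 0, with a median of 0.08. The member with the lowest p was IAA1, an early auxin-induced repressor, with 13.6 to 23.1 CPM (median 16.6) in the high lines and 4.66 to 18.1 CPM (median 13.2) in the low lines. The log2 fold change of IAA1 was 0.45 (SE 0.202, adjusted p = 0.58). The lowest IAA1 value was again L3 mock replicate 1.

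Of 16 tested genes of lateral root initiation and emergence, 7 lay above and 9 below 0, with a median of −0.02. SHR, which moves between cell layers to set endodermal fate, ran from 27.9 to 37.6 CPM in the high lines and from 22.2 to 34.4 CPM in the low lines, and its log2 fold change was 0.35 (SE 0.0864, unadjusted p = 0.000998, adjusted p = 0.58). Of 18 cell division genes 9 lay above and 9 below 0. CEP5 (AT5G66815), a peptide gene of the lateral root list, had 0 counts in all 16 libraries.

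The medians of the marker lists moved when L3 mock replicate 1 was left out. The 10 shoot and leaf markers all lay above 0 with a median of 0.35, which was 0.13 without it and 0.03 in the Dex libraries, where 7 lay above 0. The 13 tested root markers had a median of 0.24 over 16 libraries and 0.05 over 15. In the Dex libraries 11 were tested, 10 above and 1 below 0, with a median of 0.20. In the mock libraries without L3 mock replicate 1, 2 lay above and 10 below 0, with a median of −0.14. The 6 tested seed reserve genes had medians of −0.37 over 16 libraries and 0.17 over 15. In Dex all 4 tested lay above 0 (median 1.56), and in the same mock libraries all 6 lay below (median −1.02). Of 8 markers of etiolated seedlings, 5 lay above and 3 below 0 with a median of 0.05 over 16 libraries, and 2 above and 6 below with a median of −0.04 over 15. The one with the lowest p was HLS1, a gene of apical hook formation, with a log2 fold change of −0.41 (SE 0.136, adjusted p = 0.58), and 13.1 to 30.4 CPM in the high lines and 20.96 to 39.3 CPM in the low lines. The part of cell composition in any of these values was not tested. Fewer cells of a type and less RNA per cell cannot be told apart in whole seedlings.

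Genes of the 12 metabolic pathways lay mostly below 0, by small amounts. Of 191 distinct genes tested, 48 lay above and 143 below 0 over 16 libraries, with a median log2 fold change of −0.13, and 0 were called by edgeR. Over all genes tested, 8374 lay above and 9713 below 0, with a median of −0.02. At an unadjusted p under 0.05, 2 pathway genes were higher and 16 lower, beside 505 and 950 of all genes. The pathway genes also lay mostly below 0 between the lines of the high pair, where 56 were above and 135 below 0 in L11 against L8 over 15 libraries, with a median of −0.08 and 11 of 12 pathway medians below 0, beside 8925 above and 9304 below over all genes. Between the high and low pairs, the median of the pathway genes was −0.06 without L3 mock replicate 1 and −0.03 in the Dex libraries. In 11 of the 12 pathways the median was below 0 over 16 libraries, cysteine synthesis being the exception at 0.02. These lists come from the promoter set of the study and were read here with no set test.

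The TCA cycle had 10 of 52 genes above and 42 below 0, with a median of −0.15, or −0.06 over 15 libraries. AT5G65750, the E1 subunit of oxoglutarate dehydrogenase, ran from 36.4 to 68.0 CPM (median 49.3) in the high lines and from 43.5 to 309 CPM (median 76.5) in the low lines. The value of 309 CPM was L3 mock replicate 1, and without it the log2 fold change of AT5G65750 moved from −0.81 (SE 0.324) to −0.34 (SE 0.143), with adjusted p of 0.58 and 0.534. With line 12 also left out it was 0.055, so that its direction turned. Glycolysis and gluconeogenesis had 19 of 57 genes above and 38 below 0, with medians of −0.11 and −0.05 over 16 and 15 libraries.

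Synthesis of branched-chain amino acids had 2 of 15 genes above and 13 below 0, with a median of −0.22, or −0.10 over 15 libraries. IMD2, an isopropylmalate dehydrogenase of leucine synthesis, ran from 23.8 to 33.2 CPM in the high lines and from 24.7 to 48.3 CPM in the low lines, where L12 held 42.9 ± 4.75 and L3 32.0 ± 11.04 (SD, n = 4). Its log2 fold change was −0.33 (SE 0.130, adjusted p = 0.58). All 7 tested genes of aliphatic glucosinolate synthesis lay below 0 over 16 libraries, with a median of −0.29 that became −0.03 over 15. CYP79F1, GSTF11, BCAT4 and CYP83A1 of that list had 0 counts in all 16 libraries.

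**Figure D4:**
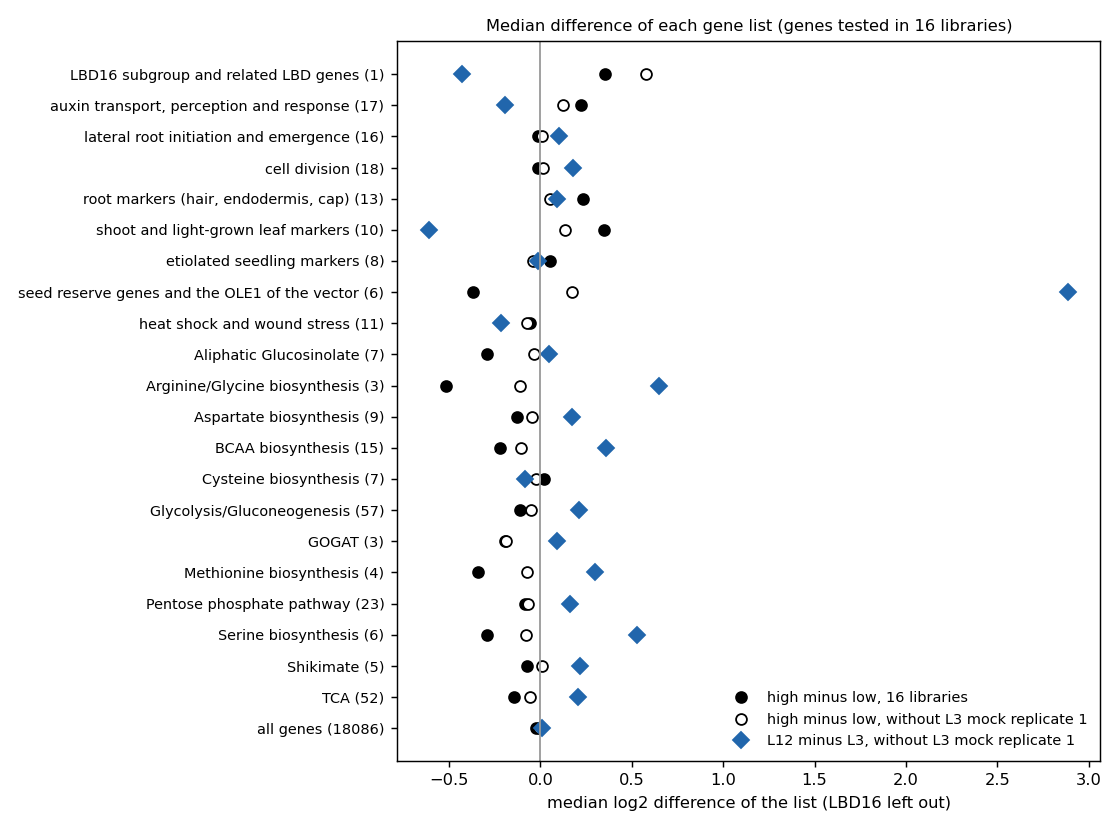
Median log2 difference of each gene list, with the number of genes tested over 16 libraries beside each list and LBD16 left out. Circles show the high over the low lines, filled for 16 libraries and open for 15 without L3 mock replicate 1. Diamonds show L12 over L3 in those 15 libraries. Most medians of the high over the low lines lie nearer 0 over 15 libraries than over 16. Examples are the auxin list (0.22 and 0.12) and the TCA cycle (−0.15 and −0.06).

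The lines of a pair also differed from each other. Between L11 and L8, edgeR called 6 genes with LBD16 counted (0.0332% of 18087), 4 higher (0.0221%) and 2 lower (0.0111%) in L11. Between L12 and L3 it called 9 (0.0498%), 8 higher (0.0442%) and 1 lower (0.00553%) in L12. Without L3 mock replicate 1 the first count rose to 25 (0.137%), 10 higher (0.0549%) and 15 lower (0.0823%), and the second to 3546, with 1998 higher (11%) and 1548 lower (8.49%), or 19.5% of 18229 genes. Leaving out L12 mock replicate 2 as well gave 2312 for the second, and leaving out L3 Dex replicate 2 in its place gave 1774. These counts come from a fit with a term for each line. Over 15 libraries that fit called 85 genes other than LBD16 between the 2 pairs. So in that fit more genes differed between the 2 low lines than between the 2 pairs.

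High in L11 alone was NPX1 (AT5G63320, chromosome 5, positions 25373955 to 25379297, minus strand), which encodes a nuclear bromodomain protein that acts in abscisic acid responses. In L11 it stood at 626 and 785 CPM in Dex and at 630.4 and 621 CPM in mock. In the 12 libraries of the other lines it ran from 81.2 to 107 CPM, and the line means were 91.8 for L8, 93.2 for L12 and 85.1 for L3. All 4 libraries of L11 were thus above every other library, by 2.88 (SE 0.148) on the log2 scale over L8, with an adjusted p of 2.93e-07. A contrast of the pairs on NPX1 alone gave 2.13 (SE 0.504, adjusted p = 0.58 by edgeR and 0.0158 by DESeq2), and L8 stood at the level of the low lines.

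AT1G75945 (chromosome 1, positions 28515245 to 28515916, minus strand), an uncharacterized protein-coding gene, had the same pattern. It stood at 7.69 and 9.71 CPM in Dex and at 8.89 and 8.52 CPM in mock in L11, and at 0 to 0.337 CPM in the other 12 libraries. Its fitted difference between L11 and L8 was 6.93 (SE 0.630, adjusted p = 0.00013). These were the only 2 genes of any line whose 4 values all lay at least 4-fold, in CPM + 1, above the 12 values of the other lines, and none lay as far below.

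The genes beside them did not share the pattern. SKP1, upstream of AT1G75945 and on the opposite strand, ran from 220.2 to 252 CPM in L11 and from 209.8 to 263 CPM in the other lines. AT5G63350, upstream of NPX1, ran from 6.55 to 7.76 CPM in L11 and from 3.83 to 18.1 CPM elsewhere. NDPK2, a nucleoside diphosphate kinase downstream of NPX1, stood lower in L11, at 48.6 ± 9.95 CPM (SD, n = 4), than in L8, at 92.1 ± 15.8. The log2 difference of NDPK2 was −0.90 (SE 0.159) with an adjusted p of 0.163 by edgeR and 0.000344 by DESeq2, and 0.000961 by edgeR over 15 libraries, while L3, at 60.7 ± 20.6 CPM, was low as well. Reads were counted without regard to strand, and where a T-DNA of L11 lies was not analysed here.

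The 250 bases before NPX1 and AT1G75945 are shown, from RefSeq TAIR10.1 and 5′ to 3′ on the strand of the gene. This is the window searched for the LOB-box. Capitals mark the GCGGCG hexamer, found once before NPX1 and not before AT1G75945. The stretch before NPX1 is chr5:25379298-25379547 and that before AT1G75945 is chr1:28515917-28516166, both on the minus strand.
NPX1: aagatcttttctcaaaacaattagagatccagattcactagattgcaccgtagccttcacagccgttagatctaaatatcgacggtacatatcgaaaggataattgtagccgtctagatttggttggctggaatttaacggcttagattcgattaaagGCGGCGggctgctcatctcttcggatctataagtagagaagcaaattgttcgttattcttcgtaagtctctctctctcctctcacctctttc
AT1G75945: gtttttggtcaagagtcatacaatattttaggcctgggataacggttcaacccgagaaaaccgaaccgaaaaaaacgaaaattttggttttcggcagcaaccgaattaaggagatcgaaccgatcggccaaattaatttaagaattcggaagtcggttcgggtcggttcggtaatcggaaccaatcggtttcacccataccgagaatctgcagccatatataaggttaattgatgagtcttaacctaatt
NPX1 was high in L11 and not in L8, and a part of LBD16 in the level of either gene was not tested.

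QQS, FSD1 and PMSR4 differed within both pairs, in an order that was not the order of LBD16. QQS, an orphan gene of starch metabolism, stood at 5.34 ± 0.698 CPM in L11 and 59.4 ± 6.72 in L8, and at 72.9 ± 6.06 in L12 and 9.74 ± 3.68 in L3 (SD, n = 4 each). The log2 difference was −3.43 (SE 0.262, adjusted p = 3.07e-05) between L11 and L8 and 2.83 (SE 0.248, adjusted p = 0.000178) between L12 and L3. None of the 4 libraries of L8 or L12 overlapped those of L11 or L3, so each pair held 1 line with a high and 1 with a low level. The contrast of pairs was −0.30 (SE 0.718).

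FSD1, an iron superoxide dismutase, followed the same split, with 5.74 ± 1.69 CPM in L11, 67.1 ± 9.42 in L8, 30.5 ± 14.6 in L12 and 6.16 ± 1.91 in L3. The log2 differences within the pairs were −3.53 (SE 0.318, adjusted p = 0.00013) and 2.18 (SE 0.306, adjusted p = 0.0181). PMSR4, a peptide methionine sulfoxide reductase, split otherwise, with 36.1 ± 1.97 CPM in L11, 18.0 ± 1.17 in L8, 40.3 ± 6.33 in L12 and 5.77 ± 1.64 in L3. It was higher in L11 than in L8 by 1.03 (SE 0.141, adjusted p = 0.0114) and higher in L12 than in L3 by 2.72 (SE 0.152, adjusted p = 8.77e-07).

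PMSR4 (chromosome 4, positions 12898514 to 12900090) is the upstream neighbour of OLEO1, or OLE1 (12900430 to 12901577), on the opposite strand. OLE1 is the gene whose promoter and coding region the vector carries, and FSD1 lies nearby at 12884300 to 12887011. OLEO1 itself stood at 5.603 ± 2.73 CPM in L11, 4.59 ± 2.04 in L8, 8.61 ± 6.24 in L12 and 5.06 ± 5.44 in L3, and its lines overlapped. OLEO1 thus did not follow the split of PMSR4. The 2 genes between FSD1 and PMSR4, MC2 and SRS2, ran from 0.631 to 5.06 CPM and from 4.39 to 12.1 CPM over the 16 libraries, with overlapping lines.

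**Figure D5:**
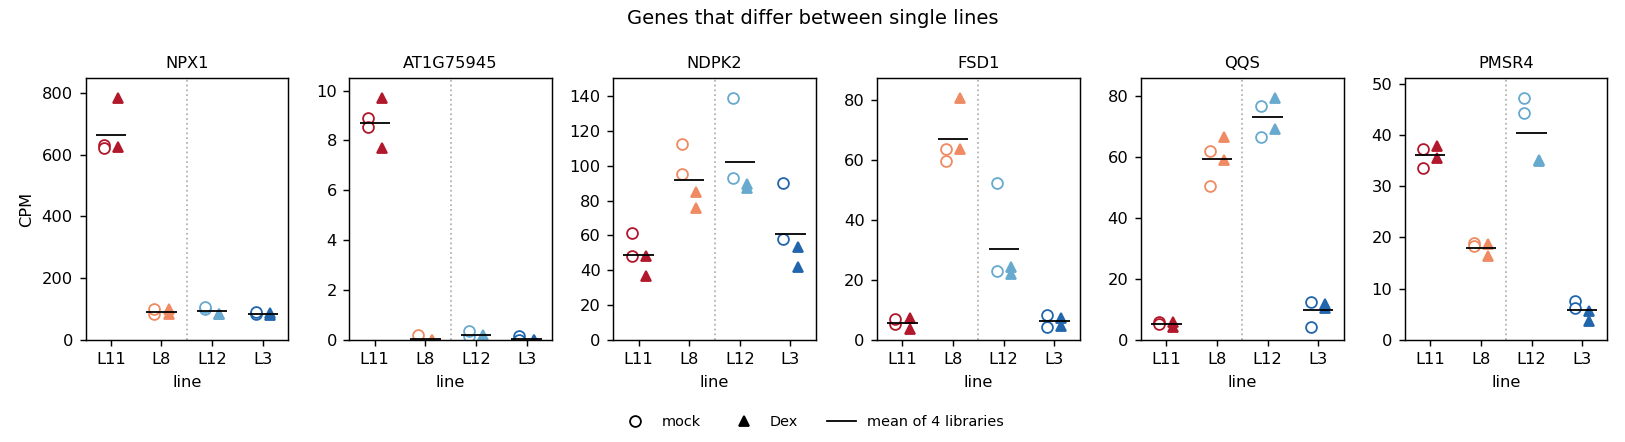
CPM of NPX1, AT1G75945, NDPK2, FSD1, QQS and PMSR4 in each library by line, with mock as open circles, Dex as filled triangles and the mean of 4 libraries as a bar. NPX1 and AT1G75945 are high in L11 alone, and QQS and FSD1 are low in L11 and L3 and higher in L8 and L12.

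The remaining calls within the low pair were also led by L12. MSRB9, another methionine sulfoxide reductase, stood at 101 ± 20.0 CPM in L12 and 38.4 ± 10.5 in L3, and SULTR3;2, a sulfate transporter, at 50.1 ± 7.80 and 19.3 ± 4.54. BDG1, which is needed for a normal cuticle, and AT1G04040, an acid phosphatase, and AT1G65920, of the RCC1 family, were higher in L12 with log2 differences of 0.65, 0.79 and 0.94. AT2G39300, uncharacterized, was the gene called lower, at 11.3 ± 2.11 CPM in L12 against 24.2 ± 1.92 in L3, with 23.3 ± 1.60 in L11 and 24.7 ± 2.82 in L8. For MSRB9 and SULTR3;2 the high lines lay between L12 and L3.

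Within the high pair, the 25 edgeR calls over 15 libraries included ARR4, ARR7 and ARR9, which were picked with their values in view. All belong to the type-A response regulators, a family of early cytokinin-induced genes with 10 members, of which 8 could be tested. Of these 8, 7 lay above and 1 below 0, and 3 were called higher and 0 lower, beside 0.137% of all genes called. ARR4 stood at 46.8 and 68.0 CPM in Dex and 40.2 and 61.5 CPM in mock in L11, and at 28.5, 29.6, 28.7 and 21.9 CPM in L8. ARR7 ran from 4.78 to 6.63 CPM in L11 and from 1.84 to 2.85 CPM in L8. ARR9 ran from 48.9 to 60.2 CPM in L11 and from 32.4 to 43.8 CPM in L8. These 3 genes, picked from the calls between L11 and L8, did not overlap between the lines, and the share of all genes without overlap is not given here.

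The log2 differences of ARR4, ARR7 and ARR9 were 1.02 (SE 0.168), 1.44 (SE 0.266) and 0.52 (SE 0.0938), with adjusted p of 0.0182, 0.0332 and 0.0254, and over all 16 libraries edgeR called none while DESeq2 called ARR7 (adjusted p = 0.0289). Between the pairs the 15-library changes of ARR4, ARR7 and ARR9 were 0.25, 0.15 and 0.17, with adjusted p of 0.857, 0.955 and 0.753.

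The many differences between L12 and L3 over 15 libraries fell in several lists. Of 191 pathway genes, 59 were higher and 6 lower in L12, or 34.0% called, beside 19.5% over all genes, and 11 of 12 pathway medians lay above 0. TCA cycle genes gave 18 higher and 1 lower of 52, glycolysis 15 and 1 of 57, and branched-chain amino acid synthesis 7 and 1 of 15. EDA9, a phosphoglycerate dehydrogenase of serine synthesis, was higher by 0.81 (SE 0.145, adjusted p = 0.00166). AT5G65750 of the TCA cycle was higher by 0.65 (SE 0.125, adjusted p = 0.00257).

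Marker lists also differed between L12 and L3 over 15 libraries, beside 11% of all genes called higher and 8.49% called lower in L12. Of 10 shoot and leaf markers, 5 were lower in L12 and 0 higher, with a median of −0.61, among them LHCB3 at −0.90 (adjusted p = 0.00581). Of 6 seed reserve genes, 3 were higher, with a median of 2.89. Of 13 root markers, 1 was called higher and 2 lower, and of 17 auxin genes 0 were called higher and 3 lower. Of 8 etiolated seedling markers, 4 lay above and 4 below 0 with a median of −0.013, and 3 were called, all higher. PORA and PORB, among these, are the protochlorophyllide reductases of etiolated seedlings, and were higher in L12 by 1.09 and 0.76 (adjusted p = 0.0017 and 0.00478). The summed level of the seed list was 90.0 to 362 CPM in the 4 L12 libraries and 10.4 to 35.5 CPM in the 3 remaining L3 libraries. Leaf marker sums ran from 12521 to 14976 CPM in L12 and from 14043 to 20620 CPM in L3, and their part in the pathway values was not tested.

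Leaving whole lines out changed the count of edgeR calls between the pairs. Without L3, L11 and L8 stood against L12 alone. Of 18389 genes tested there, 1149 other than LBD16 were called, 626 higher and 523 lower. Among these calls, 29 were listed genes, 8 higher and 21 lower, where the lists hold 344 distinct genes, not all tested. Without L12, and without L11, 0 were called. Without L8, 2 were called, NPX1 and AT1G75945, both high in L11. These last 3 fits kept L3 mock replicate 1, which the fit without L3 does not hold. With that library left out as well, which was chosen after seeing the data, 65 genes were called without L12, 0 without L11 and 5 without L8. A contrast of line means, from a fit with a term for each line, called 2 genes over 16 libraries, NPX1 and PMSR4. Over 15 libraries it called 85. A fit on the sum of each line called 0.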

How the data were processed

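The authors aligned single reads to TAIR10 and deposited raw counts per gene, without use of strand, for 32833 genes; the submitters' processing notes name Trim Galore 0.6.0, FastQC 0.11.7 and STAR 2.7.0f. The counts of the 2 runs of each library were summed, and CPM was taken over the library total, which ran from 2964241 to 7968970. Overlapping and near-identical genes (CAB1, CAB2 and CAB3, for example) share or split reads. Gene names and sequences came from RefSeq TAIR10.1.

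Lines were ranked by the mean mock CPM of AT2G42430. The pairs were compared by edgeR 4.0.16 quasi-likelihood tests (R 4.3.3, robust fit, TMM factors, filterByExpr) with treatment as covariate and Benjamini-Hochberg adjustment over all tested genes at 0.05. DESeq2 1.42.0, limma 3.58.1 (voom with line as random block), fits on line sums and line means, and fits without libraries or lines were alternatives.

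Members and lists were chosen with earlier results of these data known. The rule named AT2G42430, called genes whose pairs did not overlap or whose line means were ordered by pair, list members called or with the lowest p, and genes at least 4-fold apart in 1 line. Other genes were chosen after their values were seen.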

Additional observations from a re-analysis of the deposited data

Results flagged for a closer look

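In groups of 8 libraries, the highest or lowest value was set against the nearest of the others by Dixon's criterion. This marked 22 of 94 groups, where chance marks about 1 in 20, and 21 of the 22 were L3 mock replicate 1 within the low lines. Its median correlation with the other libraries was 0.706.

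Among single genes, L3 mock replicate 1 was lowest for IAA1 at 4.66 CPM and for CAB2 at 2.73 CPM. It was highest for CYP83B1, an enzyme of indole glucosinolate synthesis, at 245 CPM, for EDA9 at 405 CPM and for AT5G65750 at 309 CPM. It was also highest for AT5G10920 at 70.0 CPM, AT3G30841 at 17.7 CPM and AT1G22410 at 89.4 CPM, which come from the pathway lists.

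Among summed lists, it was lowest for auxin genes at 507 CPM, root markers at 47.5 CPM, shoot and leaf markers at 814 CPM, etiolated seedling markers at 741 CPM and cysteine synthesis at 460.2 CPM. It was highest for lateral root genes at 585 CPM, aliphatic glucosinolate synthesis at 566 CPM, aspartate synthesis at 1824 CPM, methionine synthesis at 525 CPM, serine synthesis at 542 CPM, the shikimate pathway at 375 CPM and the TCA cycle at 11520 CPM (11519.5 before rounding). The remaining case was L8 Dex replicate 2 in the high lines, where the lateral root genes summed to 331 CPM against 295 to 309 CPM in the other 7.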

How the results depend on the processing

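Settings that name 2 libraries, a line with L3 mock replicate 1, or that leave out L3 mock replicate 1 from DESeq2, line sums, line means or voom, were chosen after seeing the data. Counts of calls leave out LBD16 in the comparison of pairs. There, DESeq2 gave 12, the line means contrast 2, leaving out line 3 1149 and line 8 2. Without L3 mock replicate 1, DESeq2 gave 52 and the line means contrast 85, and leaving out L3 Dex replicate 2 besides gave 2 (OEP6 higher, MLP328 lower), line 8 besides 5 and line 12 besides 65. Leaving out single libraries gave 0 to 1. In Dex libraries, DESeq2 gave 44, no filter 4, and leaving out single libraries 0 to 3. In mock libraries, DESeq2 gave 1 and leaving out single libraries 0.

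Within the high pair, DESeq2 gave 17, leaving out single libraries 5 to 25, and leaving out L12 mock replicate 2 or L3 Dex replicate 2 with L3 mock replicate 1 gave 29 and 21. Within the low pair, DESeq2 gave 130, library size alone 26, single libraries 4 to 3546, and the same 2 double removals 2312 and 1774. Without line 3, 29 of the 344 distinct listed genes were called, beside 1149 of all 18389 genes tested. The causes were not tested.

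Of 832 named gene values, 799 kept direction and side of the threshold, 7 newly passed it and 26 reversed, in 13 genes. LBD18 was −0.030 and ATSERAT3;1 −0.053 without line 12. In Dex libraries alone SMB was 0.49, ATSERAT3;1 −0.015 and EDA9 0.052. Without L3 mock replicate 1, CYP83B1 was 0.0071 by line sums, and EDA9 was 0.018 by line sums, 0.011 by voom and 0.058 by line means. CYP83B1 was 0.078 with L3 Dex replicate 2 left out as well, and EDA9 0.022 with L12 mock replicate 2. With line 11 left out as well, CYP83B1 was 0.095, AT5G10920 0.11 and EDA9 0.015. With line 12 in its place, PCNA1 was 0.075, SMB 0.50, CAB2 −0.095, SESA3 0.74, CYP83B1 0.023, AT5G10920 0.28, ASP2 0.11, IMD2 0.080, ATSERAT3;1 −0.12, EDA9 0.47, AT1G22410 0.13 and AT5G65750 0.055.

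Replicate numbers did not pair the samples: over 28 pairs of line and treatment the deviations correlated at −0.434 to 0.354 (median −0.0402), with 8 above 0.1. With a replicate block, the comparison of pairs gave 0 calls and the low pair 10. The voom fit with line as block gave 0 calls. With 2 lines a pair, the level of the transgene and other properties of a line cannot be told apart.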
